A study of Mus musculus with 12 samples.

Results

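The genes described here build ribosomes. They are 36 genes of ribosome biogenesis and the nucleolus, taken by name from a fixed list. The list was drawn up with earlier results of these data known. Of the 36, 35 were measured, among 19938 genes with a probe set that names only them. Ppan, a factor of large subunit assembly, lies on a probe set that also names a second gene, so it has no value here. Ribosomes are assembled in the nucleolus. RNA polymerase I copies the ribosomal RNA precursor there, small nucleolar ribonucleoproteins (snoRNPs) guide its methylation and pseudouridylation, and processing factors cut it and join it to ribosomal proteins. MYC is a known activator of many of these genes, and in the intestine both MYC and ribosome production are known to be high in the dividing cells of the crypt and lower in the absorptive cells that line the villus.

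The samples were intestinal epithelium cut by laser from sections of tumors and from the epithelium beside the tumors, 1 array per sample. All mice were C57BL6/J males carrying APCmin/+, a germline Apc mutation that leads to intestinal adenomas, and were kept to 25 weeks of age or to a limit of weight loss. FSPCre-PPARB −/− mice, called KO, gave 3 tumor and 2 adjacent arrays, and PPARB flox/flox littermates, called floxed and carrying no Cre by their label, gave 3 tumor and 2 adjacent arrays. Cre under the FSP (fibroblast-specific protein) promoter is used to delete genes in fibroblast-like cells, so the dissected epithelium is not the compartment in which the promoter is mainly used. A further 2 adjacent arrays carried conflicting genotype labels: array 1 is KO by its title and floxed by its genotype characteristic, and array 2 is the reverse. They were used by tissue only, in the comparison of 6 tumor with 6 adjacent arrays. The labels do not tie arrays to animals, so p-values measure the spread between these arrays, part of which may be technical.

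Each value is a log2 signal, and differences are given in log2 units with their standard error (SE). Floxed tumor arrays 1 and 2 and both floxed adjacent arrays had weak signal: their values spread with an SD of 1.04 to 1.09, against 1.49 to 1.57 in the other 8 arrays, and their median correlation with the other arrays was 0.507 to 0.611, against 0.818 to 0.852. Every genotype comparison below rests in part on them. The differences within KO mice do not, but their spread does where it is taken from all 4 groups. Ppard, the floxed gene, had 6.06, 6.07 and 6.50 in KO tumor arrays, against 4.95, 4.48 and 5.79 in floxed tumor arrays, a difference of 1.14 ± 0.33 that did not pass (adjusted p = 0.0991, limma). It thus gave no lower value in the KO arrays, and whether its probe set lies in the floxed exons was not examined, so it checks nothing about the deletion. The tissue labels were set against cell markers within KO mice. Markers of absorptive enterocytes lay above 0 in 12 of 12 genes, while 42.7% of all genes lay below 0. Of the 12, 5 rose in KO tumor arrays, against 0.557% of all genes, among them the glucose transporters Slc2a2 (2.09 ± 0.26) and Slc5a1 (2.36 ± 0.35). Of 11 measured markers of crypts and Wnt activity, 5 fell, against 1.29% of all genes, among them Notum (−1.58 ± 0.14), Cd44 (−1.79 ± 0.19) and the stem cell receptor Lgr5 (−1.28 ± 0.21). Of the 11, 10 lay below 0 and 1 above, Olfm4 at 0.78, with overlapping groups. In KO mice, then, the arrays labelled tumor carried more enterocyte signal and less crypt and Wnt signal than those labelled adjacent. This goes against the labels, since Apc-mutant tumors are known for high expression of Wnt targets. Tissue is named as labelled throughout.

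Members were ordered by role: the box C/D snoRNP core, the H/ACA snoRNP, abundant nucleolar proteins, small subunit processing, large subunit assembly, RNA polymerase I and its regulators, and enzymes of polyamine and pyrimidine synthesis. To set arrays side by side, the median of the 35 genes was taken minus the median of all genes in the same array. It was 0.45, 0.31 and 0.18 in KO tumor arrays 1 to 3 and 0.64 and 0.65 in KO adjacent arrays 1 and 2. It was 0.18, 0.14 and 0.24 in floxed tumor arrays 1 to 3 and 0.23 and 0.28 in floxed adjacent arrays 1 and 2. The arrays of conflicting labels had 0.61 and 0.38. The genes as a group stood highest in the KO adjacent arrays, above all 3 KO tumor arrays, while the floxed tumor and adjacent arrays differed little.

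**Figure D1:**
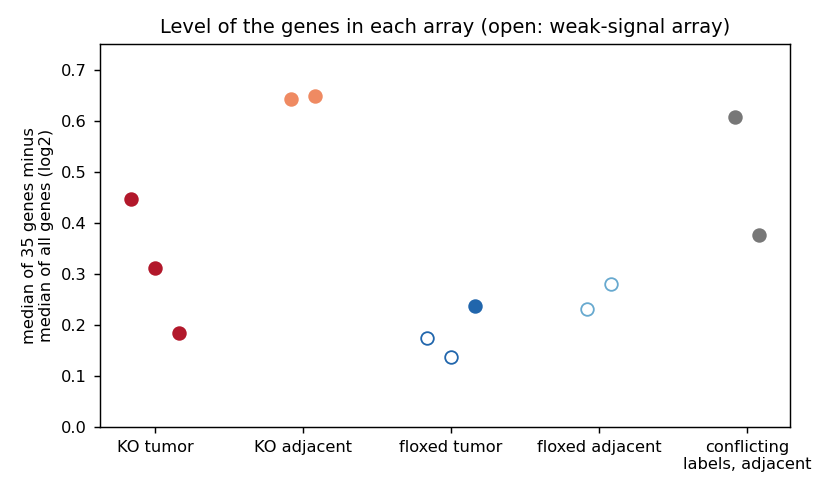
Median log2 value of the 35 measured genes minus the median of all genes, 1 point per array, by group, with open circles for weak-signal arrays. The KO adjacent arrays, at 0.64 and 0.65, lie above the KO tumor arrays, which run from 0.18 to 0.45.

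**Figure D2:**
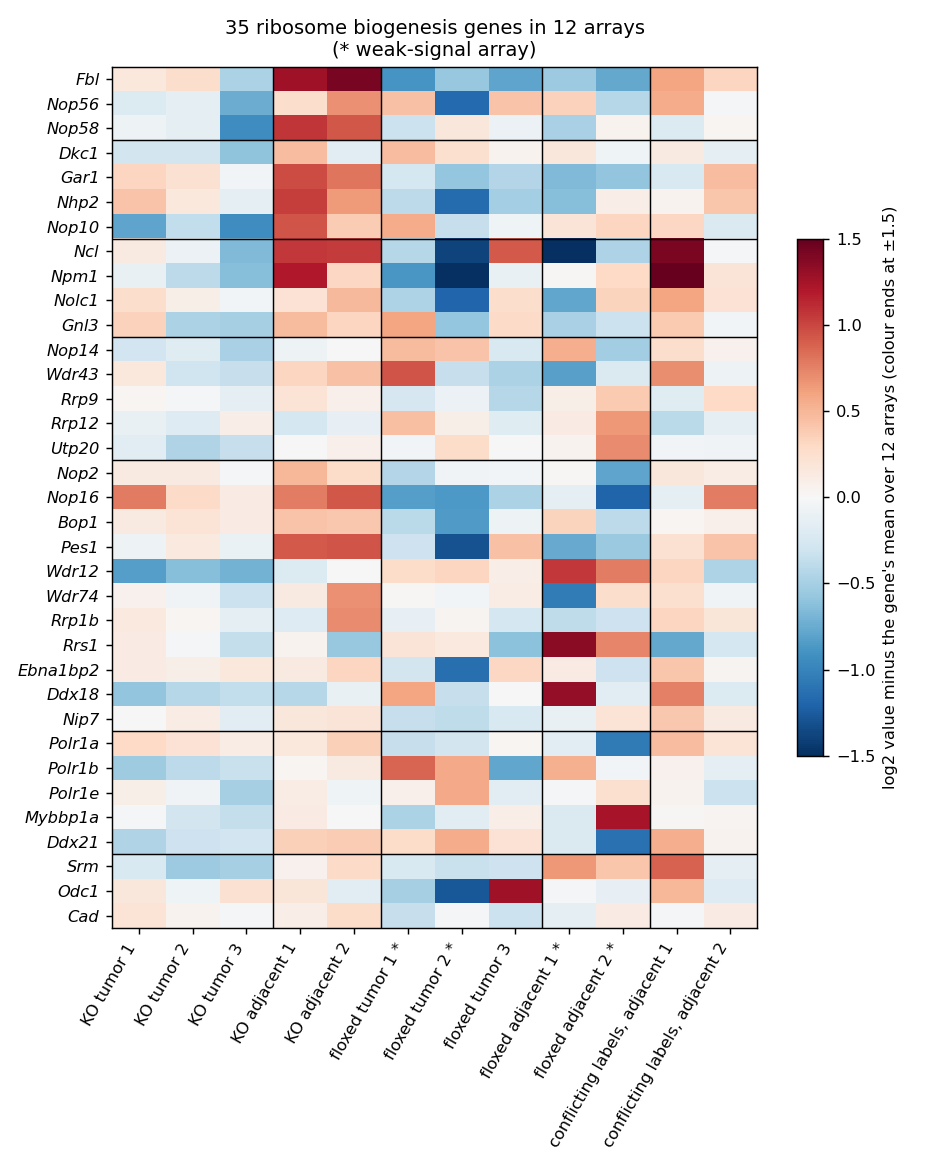
Log2 value of each gene minus its own mean over the 12 arrays, with genes in rows by role and arrays in columns by group, and a star on weak-signal arrays. Box C/D, H/ACA and abundant nucleolar genes are high in the KO adjacent arrays, and the weak-signal arrays show scattered high and low values.

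The clearest pattern was within KO mice, where the genes were lower in tumor than in adjacent epithelium. With the 5 KO arrays fitted alone, 6 of 35 members fell in tumor epithelium, against 1.29% of all genes, and 0 rose, against 0.557% (limma, adjusted p under 0.05 over all genes, 1.85% of genes in either direction). The 6 were Fbl, Nop58, Nop10, Ncl, Pes1 and Ddx21. The difference was below 0 for 32 of 35 members, against 42.7% of all genes, and its median was −0.45, against 0.04 over all genes. An unadjusted p under 0.05 was reached by 18 of 35, against 13.7%. In 23 of 35 members all KO tumor arrays lay below both KO adjacent arrays, against 14.1% of all genes, and in 0 members they lay above, against 17.9%. In bulk tissue, fewer cells of a type and less RNA per cell cannot be told apart. The calls depended on which arrays were used. With KO tumor array 2 left out, 0 members passed, against 0.281% of all genes, and the median was −0.39. Calls over all genes thus fell too, from 1.85%. Without KO tumor array 1 or 3 the counts of members were 5 and 6. Without KO adjacent array 1 or 2, which leaves 1 array in that group, the medians were −0.50 and −0.37. When the spread was taken from all 4 groups, weak-signal arrays included, 0 members passed, against 0.0201% of all genes (limma), and 10 of 35 had an unadjusted p under 0.05, against 2.47%. Without the weak-signal arrays, floxed tumor array 3 is the only floxed array in that fit, and the spread comes from the KO arrays alone. It then repeats the fit of the 5 KO arrays, with the same 6 calls, and is no separate check of them.

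**Figure D3:**
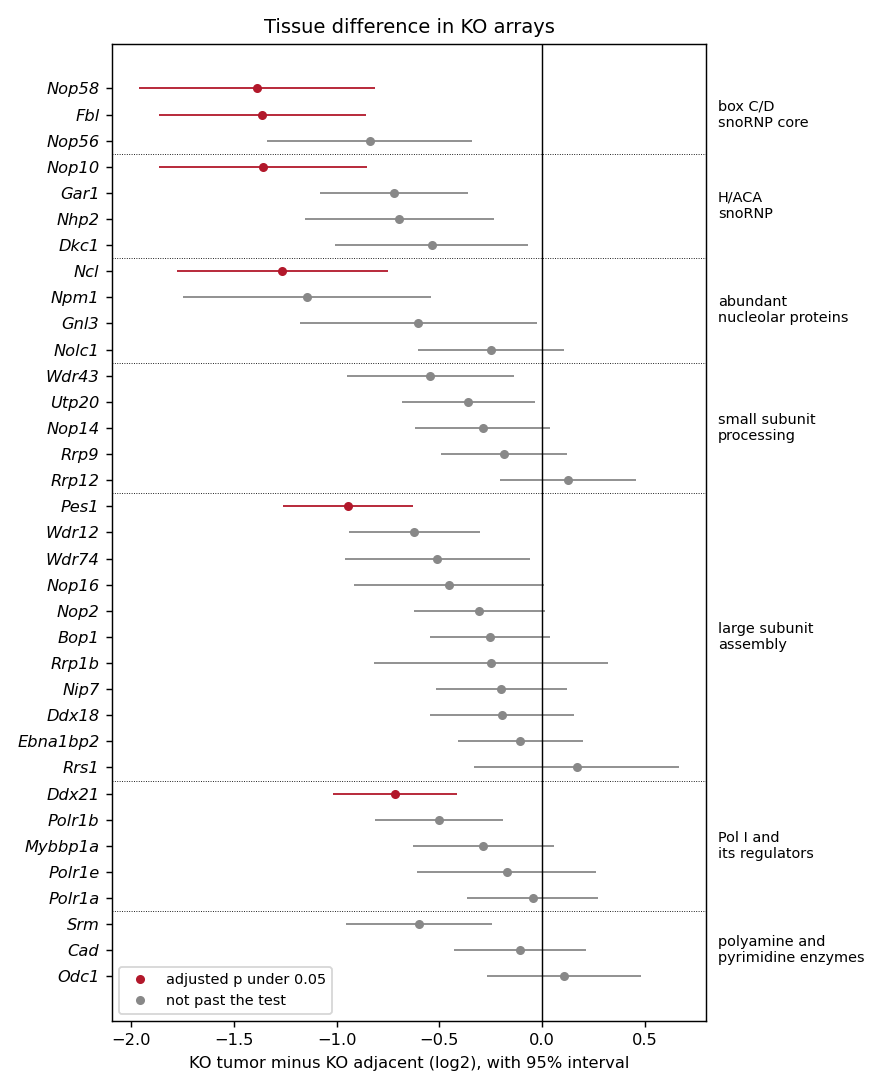
KO tumor minus KO adjacent (log2) for each of 35 genes with its 95% interval, grouped by role, from the fit of the 5 KO arrays, red where the adjusted p is under 0.05. Of the 35 points, 32 lie left of 0, with the box C/D core, Nop10 and Ncl farthest.

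The box C/D snoRNP core places methyl groups on ribosomal RNA, with Fbl (fibrillarin) as the methyltransferase and Nop56 and Nop58 as its scaffold. All 3 genes were lower in every KO tumor array than in either KO adjacent array. Nop58 had 3.96, 3.89 and 3.10 in KO tumor arrays, against 5.11 and 4.96 in KO adjacent arrays, and fell by 1.39 ± 0.25 (SE, adjusted p = 0.0391). In the other arrays Nop58 stayed near the KO tumor level, at 3.70, 4.20 and 3.94 in floxed tumor, 3.55 and 4.08 in floxed adjacent, and 3.82 and 4.06 in the arrays of conflicting labels. The high Nop58 values were therefore those of the 2 KO adjacent arrays. Nop56 had 5.13, 5.20 and 4.59 in KO tumor arrays, against 5.59 and 6.03 in KO adjacent arrays, a difference of −0.84 ± 0.22 that missed the threshold (adjusted p = 0.115).

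Fbl had 5.32, 5.43 and 4.70 in KO tumor arrays, against 6.43 and 6.59 in KO adjacent arrays, and fell by 1.36 ± 0.22 (adjusted p = 0.0293). The groups were far apart, but this value depends on the probe set. Fbl has a second probe set on the array, dimmer on average, with 4.90, 5.11 and 4.63 in KO tumor arrays, against 4.50 and 4.88 in KO adjacent arrays, a difference of 0.20 (adjusted p = 0.703, and 0.00225 to 0.703 over all alternatives for Fbl). Identifiers of probe sets mostly follow the genome, with 94.3% of neighbours on the same chromosome. Of the 20 nearest identifiers, 17 of those around the brighter Fbl probe set belong to chromosome 17, while Fbl lies on chromosome 7, and 20 of those around the second belong to chromosome 7. Which locus the brighter probe set reads was not tested. Counted by the second probe set, the calls in KO mice are 5 and not 6.

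The H/ACA snoRNP converts uridine to pseudouridine and also forms part of telomerase, with Dkc1 (dyskerin) as its enzyme and Gar1, Nhp2 and Nop10 as partners. Nop10 had 4.78, 5.20 and 4.65 in KO tumor arrays, against 6.52 and 5.95 in KO adjacent arrays, and fell by 1.36 ± 0.22 (adjusted p = 0.0293). Nop10 in KO tumor arrays lay below every other array of the series, since floxed tumor arrays had 6.13, 5.23 and 5.51, floxed adjacent arrays 5.76 and 5.89, and those of conflicting labels 5.89 and 5.35. The other H/ACA members missed the threshold, although no KO tumor array overlapped a KO adjacent array. Gar1 had 5.65, 5.56 and 5.28 in KO tumor arrays, against 6.30 and 6.13 in KO adjacent arrays (−0.72 ± 0.16, adjusted p = 0.0668). Nhp2 differed by −0.70 ± 0.20 (adjusted p = 0.153) and Dkc1 by −0.54 ± 0.21 (adjusted p = 0.288).

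Among the abundant nucleolar proteins, Ncl (nucleolin), which binds ribosomal RNA precursors, fell. Its KO tumor arrays had 5.83, 5.60 and 5.02, against 6.75 and 6.74 in KO adjacent arrays, a difference of −1.26 ± 0.22 (adjusted p = 0.0373). Elsewhere Ncl varied widely, with 5.26, 4.30 and 6.61 in floxed tumor, 4.17 and 5.23 in floxed adjacent, and 7.10 and 5.65 in the arrays of conflicting labels. Npm1 (nucleophosmin), a nucleolar chaperone, had 5.23, 4.95 and 4.70 in KO tumor arrays, against 6.55 and 5.66 in KO adjacent arrays, and did not pass (−1.14 ± 0.26, adjusted p = 0.0797). Gnl3 (nucleostemin), a nucleolar GTPase, differed by −0.60 ± 0.25 (adjusted p = 0.346), and Nolc1, a snoRNP chaperone, by −0.25 ± 0.15 (adjusted p = 0.537), and for both genes the groups overlapped.

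The factors of small subunit processing, which act on the precursor of 18S ribosomal RNA, differed less. Of 5 measured, 0 passed, 4 lay below 0 and the median difference was −0.29. Wdr43 had the largest, −0.54 ± 0.18 (adjusted p = 0.212), with 5.29, 4.84 and 4.79 in KO tumor arrays, against 5.46 and 5.58 in KO adjacent arrays. Utp20, Nop14 and Rrp9 differed by −0.36, −0.29 and −0.19 and Rrp12 by 0.13, with adjusted p-values from 0.306 to 0.758.

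Large subunit assembly was measured by 11 genes, of which 1 passed and 10 lay below 0, with a median of −0.25. Pes1, which joins Bop1 and Wdr12 in the PeBoW complex needed to process large subunit ribosomal RNA, had the smallest p-value of all members. It had 5.74, 5.95 and 5.71 in KO tumor arrays, against 6.73 and 6.76 in KO adjacent arrays, and fell by 0.94 ± 0.14 (adjusted p = 0.0220). Wdr12, its partner, had 3.04, 3.22 and 3.16 in KO tumor arrays, against 3.66 and 3.87 in KO adjacent arrays, and narrowly missed (−0.62 ± 0.14, adjusted p = 0.0722). Bop1 also kept its groups apart, at a smaller difference of −0.25 ± 0.13 (adjusted p = 0.440). The PeBoW genes were thus all lower in every KO tumor array, and only Pes1 passed the test. Of the others, Wdr74 and Nop16 differed by −0.51 and −0.45, Nop2, a methyltransferase of large subunit ribosomal RNA, by −0.31, and Rrs1 by 0.17, the only gene of this group above 0. Wdr12 and Ddx18 each have a second probe set as well, with differences of −0.10 and −0.37 beside −0.62 and −0.19 for the ones used. Of the 20 identifiers nearest to these second probe sets, 18 belong to chromosome 7 for Wdr12 and 17 to chromosome 6 for Ddx18, although both genes lie on chromosome 1, so which locus they read is in doubt.

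Of RNA polymerase I and its regulators, Ddx21 fell. Ddx21 is an RNA helicase that acts in ribosomal RNA transcription and processing. Its KO tumor arrays had 3.86, 4.00 and 4.03, against 4.67 and 4.69 in KO adjacent arrays, a difference of −0.72 ± 0.13 (adjusted p = 0.0399) with little spread in either group. Polr1b, the second largest polymerase I subunit, differed by −0.50 ± 0.14 (adjusted p = 0.127) without overlap, and the largest subunit, Polr1a, by −0.05 ± 0.14 (adjusted p = 0.922). Mybbp1a, a nucleolar regulator, and Polr1e, a further subunit, differed by −0.29 and −0.17.

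The enzymes on the list feed growth with polyamines and pyrimidines. Srm, spermidine synthase, had 4.78, 4.46 and 4.51 in KO tumor arrays, against 5.07 and 5.29 in KO adjacent arrays (−0.60 ± 0.15, adjusted p = 0.115). Odc1, ornithine decarboxylase and the rate-limiting enzyme of polyamine synthesis, overlapped in part (0.11 ± 0.16, adjusted p = 0.826), as did Cad, which starts pyrimidine synthesis (−0.11 ± 0.14, adjusted p = 0.792). Odc1 likewise has a second probe set, with a difference of 0.26. The 20 identifiers nearest to the one used belong to chromosome 8, although Odc1 lies on chromosome 12, so values of Odc1 carry the same limit as those of Fbl.

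**Figure D4:**
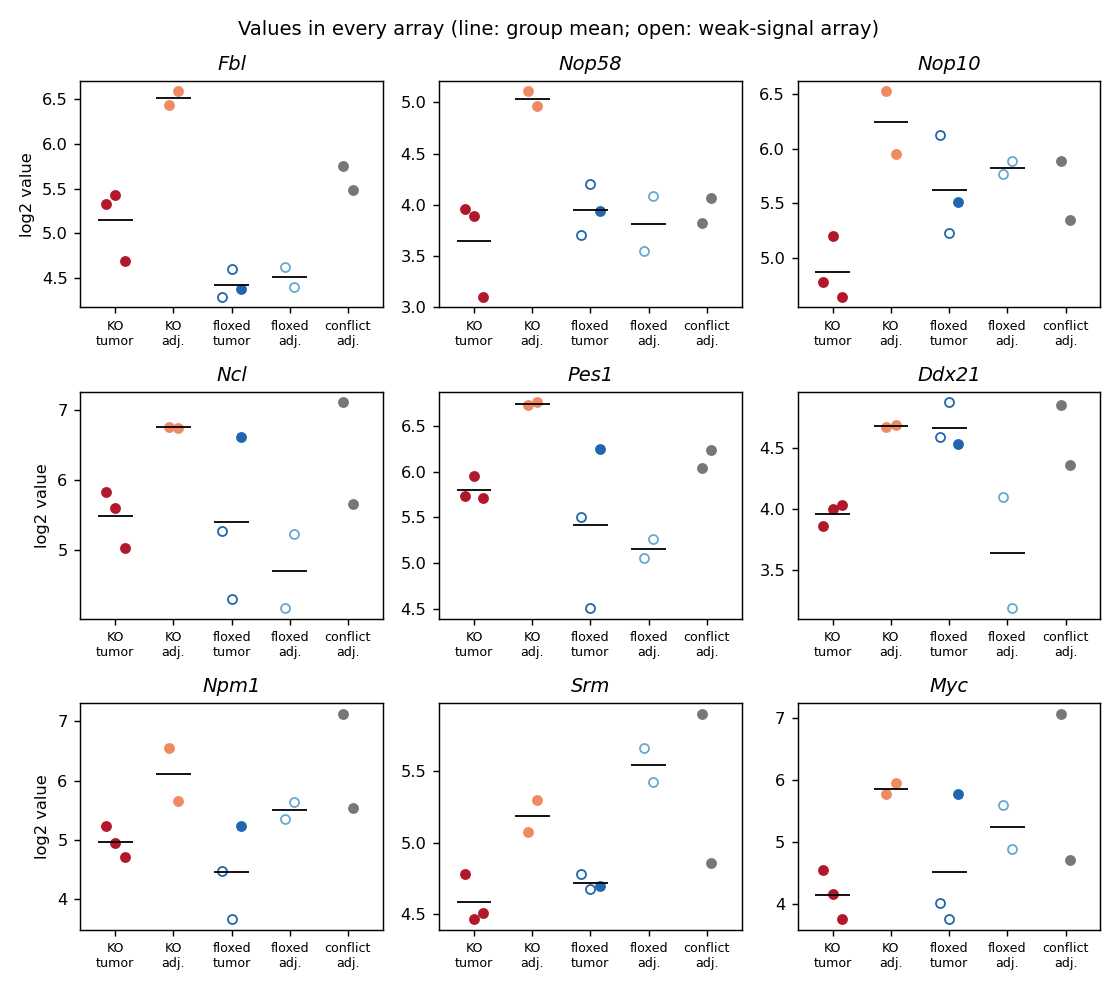
Log2 values of 8 members and of Myc in every array, by group, with a line at the mean of each group of the fit and open circles for weak-signal arrays. KO tumor arrays lie below KO adjacent arrays in all 9 panels, and floxed arrays are more spread.

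Of the 6 genes that fell in KO tumor epithelium, 5 have a promoter in the RefSeq table (GRCm38.p6, 250 bases before to 50 after the gene start), and Fbl is named only. The promoters were searched for the E-box CACGTG, the letters MYC with MAX binds best, and, added after the values were seen, for its known variant CACGCG on either strand, which reads CGCGTG on the other. These motifs share most of their letters, and matches can overlap one another, as the CACGCG matches in Mybbp1a do. CACGTG occurs in the promoters of Pes1, Wdr43, Utp20, Nop2 and Mybbp1a, 5 of the 30 members with a promoter (16.7%). Among all 27025 genes with a promoter the share was 8.09%, and a gene with several promoters was counted once. CACGCG occurs in 11 of 30 (36.7%), against 10.5%, among them Pes1, Nop10 and Ddx21. The members were listed as MYC-driven genes, so these shares are not independent of how the list was chosen. Base composition differs too, with a median of 57.0% G and C in members' promoters and 52.7% in all promoters, and its part in these shares was not tested. A match is a run of letters and not a shown binding site. The 3 promoters with a match among the genes that fell are given 5′ to 3′ on the gene's strand, with matches in capitals, while those of Ncl and Nop58 have neither run of letters in this window. Pes1 lies at chr11:3963725-3964024 on the plus strand, Nop10 at chr2:112261676-112261975 on the plus strand and Ddx21 at chr10:62602249-62602548 on the minus strand.
Pes1: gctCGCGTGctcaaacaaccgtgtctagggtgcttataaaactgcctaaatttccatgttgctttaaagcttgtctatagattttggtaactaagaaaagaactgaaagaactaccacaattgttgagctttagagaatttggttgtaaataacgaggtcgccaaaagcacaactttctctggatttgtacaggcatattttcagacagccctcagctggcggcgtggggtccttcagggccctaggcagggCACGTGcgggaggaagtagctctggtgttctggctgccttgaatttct
Nop10: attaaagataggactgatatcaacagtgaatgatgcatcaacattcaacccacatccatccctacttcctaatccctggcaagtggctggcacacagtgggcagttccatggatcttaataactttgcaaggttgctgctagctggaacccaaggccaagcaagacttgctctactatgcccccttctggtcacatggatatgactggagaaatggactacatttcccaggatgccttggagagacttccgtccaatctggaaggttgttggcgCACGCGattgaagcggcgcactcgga
Ddx21: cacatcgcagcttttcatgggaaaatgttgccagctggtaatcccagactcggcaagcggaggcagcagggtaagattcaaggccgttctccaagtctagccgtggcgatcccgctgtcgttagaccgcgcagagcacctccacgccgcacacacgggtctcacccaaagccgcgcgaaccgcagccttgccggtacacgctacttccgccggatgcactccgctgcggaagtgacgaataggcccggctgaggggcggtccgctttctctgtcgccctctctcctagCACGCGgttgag

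Other genes of the pathway mostly had differences of the same sign. A list of 127 further genes of polymerase I, the small subunit processome, large subunit assembly, the exosome and snoRNP assembly had 122 measured, of which 4 fell, against 1.29% of all genes, and 0 rose, against 0.557%, in KO tumor against KO adjacent epithelium. The difference was below 0 for 112 of 122 (91.8%), against 42.7% of all genes, with a median of −0.28. The 4 were Taf1d, a subunit of the polymerase I selectivity factor (−1.66 ± 0.24, adjusted p = 0.0202), Nifk, a large subunit factor (−0.996 ± 0.17, adjusted p = 0.0363), Utp18 of the processome (−0.73 ± 0.13, adjusted p = 0.0399) and Exosc1 of the RNA exosome (−0.87 ± 0.17, adjusted p = 0.0486). The share below 0 was close to that of the 35 members. Of 8 further measured genes of polyamine and pyrimidine metabolism, 1 fell, against 1.29% of all genes, spermine oxidase Smox (−0.97 ± 0.18, adjusted p = 0.0427).

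Myc itself fell with them. It had 4.54, 4.15 and 3.75 in KO tumor arrays, against 5.78 and 5.95 in KO adjacent arrays, a difference of −1.72 ± 0.22 (adjusted p = 0.0148). Outside KO mice Myc had 4.01, 3.74 and 5.77 in floxed tumor, 5.60 and 4.89 in floxed adjacent, and 7.08 and 4.71 in the arrays of conflicting labels. The highest value was that of conflicting-label array 1, which also had the highest Npm1, Ncl and Srm of the series. Of 12 measured genes of the MYC network 1 fell, Myc, against 1.29% of all genes, and the median difference was 0.09.

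Cell markers differed in the same comparison. In KO tumor arrays the summed log2 level of the 12 enterocyte markers was 97.6 to 106, against 75.8 to 87.6 in KO adjacent arrays. The 11 measured crypt and Wnt markers summed to 53.8 to 54.6, against 62.0 to 62.6, and the 11 measured proliferation markers to 49.4 to 53.1, against 57.5 to 58.6. All 11 proliferation markers were below 0, against 42.7% of all genes, with a median of −0.44 and 1 that fell, Ccna2, against 1.29%. Fibroblast markers summed to 39.1 to 40.9, against 42.6 to 43.6, and 1 of 8 fell, against 1.29% of all genes, the matrix gene Dcn (−1.23 ± 0.19). The ribosome biogenesis genes were thus low in the same arrays as the crypt, Wnt and proliferation markers, and the part of cell composition in their difference was not tested.

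Between genotypes in tumor epithelium, the comparison of the series title, the members showed no shared shift. Of 35 members 0 passed, against 1.08% of all genes (0.682% higher and 0.396% lower, limma), 9 had an unadjusted p under 0.05, against 23%, and the median of KO minus floxed was 0.00, with 17 of 35 below 0, against 50.4%. All KO arrays lay below all floxed arrays in 6 members, against 13.9% of all genes, and above in 8, against 13.2%. In simulated data this fit called 0 of 50 genes with a true log2 change of 1 and 8 of 50 with a change of 2. The 0 calls among members therefore do not show that differences of such size were absent. Wdr12 came closest to the threshold, with 3.04, 3.22 and 3.16 in KO tumor arrays, against 4.15, 4.19 and 3.96 in floxed tumor arrays (−0.96 ± 0.21, adjusted p = 0.0626). Nop16, a large subunit factor, had 5.80, 5.30 and 5.15, against 4.19, 4.16 and 4.55 (1.12 ± 0.31, adjusted p = 0.0882). Box C/D and H/ACA genes had differences of both signs, with Fbl at 0.73 ± 0.25 (adjusted p = 0.136) and Nop10 at −0.74 ± 0.29 (adjusted p = 0.171). Without the weak-signal arrays, which leaves floxed tumor array 3 alone in its group and assumes that it varies like the others, 5 of 35 members passed, against 19.4% of all genes. With floxed tumor array 3 left out in place of them, 6 passed, against 29.1%. Both shares of members are below those of all genes. Nop16 and Wdr12 were among the calls of both fits, at 0.87 and −0.82 without the weak-signal arrays and 1.24 and −1.03 without floxed tumor array 3. Odc1 was called in both with opposite signs, at −1.16 and 1.00.

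In adjacent epithelium the same genotype comparison set the 2 KO arrays, in which the genes stood highest, against 2 arrays of weak signal. Of 35 members 3 rose, against 2.91% of all genes, and 1 fell, against 3.15%, so 4 passed in all, against 6.06% (limma). Fbl had 6.43 and 6.59 in KO adjacent arrays, against 4.62 and 4.40 in floxed adjacent arrays (2.00 ± 0.31, adjusted p = 0.0147), with the limit of its probe set given above. Gar1 had 6.30 and 6.13, against 4.66 and 4.74 (1.52 ± 0.27, adjusted p = 0.0197), and Nop16 had 5.78 and 5.96, against 4.87 and 3.82 (1.52 ± 0.38, adjusted p = 0.0426). Wdr12 was the member that fell, with 3.66 and 3.87 in KO adjacent arrays, against 4.92 and 4.63 in floxed adjacent arrays (−1.02 ± 0.26, adjusted p = 0.0479). Groups did not overlap in 17 members that were higher, against 32.1% of all genes, and 4 that were lower, against 35%. The median was 0.44, with 11 of 35 members below 0, against 52.4%, and 12 had an unadjusted p under 0.05, against 28.2%. Cell markers differed in the same comparison: 8 of 8 epithelial markers were above 0 (median 1.86, 0 called), 10 of 11 crypt and Wnt markers (median 1.36, 3 rose), 9 of 11 proliferation markers (median 0.60, 1 rose) and 7 of 8 fibroblast markers (median 0.74, 2 rose). Their part in the members' values was not tested. Ncl and Pes1 had large differences that missed the threshold, 2.05 ± 0.62 (adjusted p = 0.0699) and 1.59 ± 0.45 (adjusted p = 0.0602). With the arrays of conflicting labels placed by title or by characteristic, 0 members passed, against 0.00502% and 0.241% of all genes. Without floxed adjacent array 2, which leaves 1 array in that group, the median was 0.32. Both floxed adjacent arrays had weak signal and neither KO adjacent array did, so genotype and weak signal cannot be told apart here.

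Within floxed mice no shared shift of the genes by tissue was seen. Of 35 members 0 passed, against 0.00502% of all genes (limma), 5 had an unadjusted p under 0.05, against 12.5%, and the median of tumor minus adjacent was −0.09, with 21 of 35 below 0, against 50.8%. Floxed tumor arrays lay below floxed adjacent arrays in 6 members, against 10.1% of all genes, namely Npm1, Rrp9, Wdr12, Rrs1, Nip7 and Srm. They lay above in 3, against 8.64%, namely Gar1, Rrp1b and Ddx21. Ddx21 had 4.59, 4.87 and 4.53 in floxed tumor arrays, against 4.10 and 3.19 in floxed adjacent arrays (1.02 ± 0.30, adjusted p = 0.240), a difference opposite in sign to that in KO mice. Srm had 4.78, 4.68 and 4.70, against 5.66 and 5.42 (−0.82 ± 0.24, adjusted p = 0.248). Enterocyte markers were above 0 in 12 of 12 genes here too (median 2.39, 0 called), while crypt and Wnt markers were above 0 in 8 of 11 (median 0.10, 0 called) and proliferation markers in 6 of 11 (median 0.03, 0 called). The higher enterocyte values in tumor arrays were thus measured in both genotypes, and the part of cell composition in the members' values was not tested. Of the 5 floxed arrays 4 had weak signal. This comparison was not run on simulated data, so its 0 calls do not show that tissue differences were absent.

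The tissue difference was not shown to depend on genotype. The interaction, the KO difference minus the floxed difference, had 0 of 35 members past the test, against 0% of all genes (limma), 7 members had an unadjusted p under 0.05, against 6.42%, and the median was −0.40, with 23 of 35 below 0, against 47.6%. Ddx21 had the smallest p-value among members (−1.74 ± 0.42, adjusted p = 0.586), and Ncl the largest size (−1.96 ± 0.81, adjusted p = 0.772). The plot of both tissue differences places most of the genes that fell in KO mice near or above 0 in floxed mice, without a difference between genotypes that passed.

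**Figure D5:**
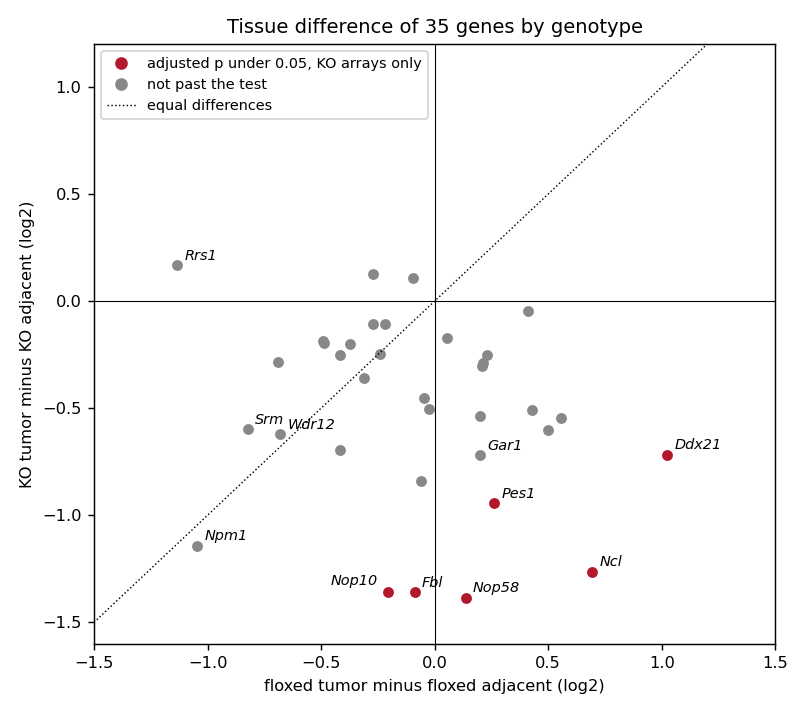
Tumor minus adjacent (log2) of 35 genes, with floxed mice on the horizontal axis and KO mice on the vertical axis, red where the adjusted p in KO arrays is under 0.05, and a dotted line at equal differences. Npm1, Srm and Wdr12 lie below 0 on both axes, and Ddx21 lies at 1.02 in floxed and −0.72 in KO mice.

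Over all 12 arrays, tumor against adjacent, 0 of 35 members passed, against 0% of all genes (limma), and 3 had an unadjusted p under 0.05, against 2.57%. The difference was below 0 in 31 of 35, against 49.2% of all genes, with a median of −0.25. In 2 members all 6 tumor arrays lay below all 6 adjacent arrays, against 0.13% of all genes, and in 0 above, against 0.0652%. Npm1 ranged from 3.66 to 5.24 with a median of 4.83 in tumor arrays, against 5.36 to 7.13 with a median of 5.65 in adjacent arrays (−1.27 ± 0.34, adjusted p = 1.00). Srm ranged from 4.46 to 4.78 with a median of 4.69, against 4.86 to 5.90 with a median of 5.36 (−0.72 ± 0.19, adjusted p = 1.00). Neither difference passed over all genes. Weak-signal arrays are 2 of the 6 tumor and 2 of the 6 adjacent arrays, and without them the median was −0.35 and 0 members passed. When limma weighted the arrays by their quality, Npm1 (−1.07, adjusted p = 0.0466) and Nop10 (−1.04, adjusted p = 0.0408) passed.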

How the data were processed

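RNA of laser-dissected mouse intestinal epithelium was labelled with the GeneChip WT Pico Kit, per the labels' protocols, and hybridised to 12 arrays. The authors deposited 1 log2 expression value per probe set and array, made with Partek and RMA per the submitters' processing notes, with versions and filters not given in the sources used here. Arrays give no depth, so their number limits the precision.

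Of 35556 probe sets, 21789 had 1 gene symbol, 1621 several and 12146 none in the platform table used here. Identifiers of 21698 matched the gene table of the reference, with 0 changes of symbol. Where several probe sets named 1 gene (999 of 19938 genes), the brightest by its mean over 12 arrays stood for it. Samples were grouped by their labels. Differences were fitted with limma 3.58.1 in R 4.3.3 (lmFit, eBayes, two-sided) in 4 groups of 10 arrays, in the 5 KO arrays alone, and by tissue over 12 arrays, with Benjamini-Hochberg adjustment over all genes and calls at an adjusted p under 0.05. Every adjusted p is from these fits. Weak-signal arrays are those whose median correlation with the others was under 0.7.

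The members, their role groups, the other gene lists, the markers and the fit of KO arrays alone were chosen with earlier results of these data known. Genes named are the members, and genes of the other lists that passed, with Ppard and Myc. Deviations of same-numbered tumor arrays of both genotypes correlated at 0.105, 0.121 and 0.348 across genes. The title number was used as a block in an alternative fit only, and no label says what a number shares. The main fits have no block. The evidence was mixed: KO tumor array 1 and floxed tumor array 2, of different numbers, correlated at 0.246, and same-numbered pairs that include adjacent arrays at −0.129 to 0.062. KO adjacent arrays 1 and 2 by title are 2 and 3 by description, so blocks with them rest on the title. Blocking on it left 0 members past the test in tumor epithelium.

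The fit of KO against floxed tumor epithelium and that of the KO arrays alone were tested on simulated data. Of 50 genes given a true log2 change of 1, they called 0 and 23. At a change of 2 they called 8 and 45 of 50, and at 3 they called 43 and 49. Among unchanged genes they called 0 and 4. Alternatives were a further quantile normalization, a filter on the 30% dimmest genes, other variance priors, array weights, the other probe set, the replicate block, a fit of only the arrays compared, leaving out each array or the weak-signal arrays, and both readings of the conflicting labels.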

Additional observations from a re-analysis of the deposited data

Results flagged for a closer look

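In each tissue the 6 arrays were searched for single arrays far from the others, a search that flags about 1 in 20 groups by chance. In tumor epithelium, floxed tumor array 1 had a low Nop2 of 4.58, against a nearest value of 4.98. In adjacent epithelium, floxed adjacent array 1 had a low Nolc1 of 4.42, against 5.41. Floxed adjacent array 2 had a high Utp20 of 5.04, against 4.40, a low Nop2 of 4.23, against 5.04, and a high Mybbp1a of 6.34, against 5.22. All 5 values belong to arrays of weak signal, and its part in them was not tested.

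For 2 members the tissues were apart in opposite directions in the 2 genotypes: tumor arrays lay below adjacent arrays in KO mice and above them in floxed mice. Taken singly, tumor arrays lay below in 14.1% of all genes in KO mice and above in 8.64% in floxed mice. The share of all genes with both was not counted, so the count of 2 has no share beside it. The KO difference minus the floxed difference was −1.74 for Ddx21 and −0.92 for Gar1. Neither passed the interaction test of limma (adjusted p = 0.586 and 0.716), and both floxed adjacent arrays had weak signal.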

How the results depend on the processing

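With the KO arrays alone, the median tissue difference of the members stayed between −0.50 and −0.35 under all 13 alternatives. The count of 6 became 0 with the conflicting labels read by title (0.0853% of all genes) or by characteristic (0%). It ran from 0 to 6 with 1 KO tumor array left out, and the 0 came without KO tumor array 2 (0.281%). The 6 genes were below 0 in every alternative except Fbl with its second probe set (0.20), and each passed in 7 or 8 of 13. In the 4-group fit, 12 members passed with array weights (5.23% of all genes). Without weak-signal arrays that fit takes its spread from the KO arrays alone and repeats their 6 calls. For KO against floxed tumor, 3 of 35 passed with array weights (14.6% of all genes), 5 without weak-signal arrays (19.4%, median −0.11, with Ncl at −1.13 and Odc1 at −1.16, both above 0 with all arrays), and 0 to 6 with 1 array left out (medians −0.11 to 0.14). For KO against floxed adjacent, the count of 4 became 1 with quantile normalization (0.642% of all genes, median 0.24), 2 without dim genes or with the other probe set (3.25% and 5.73%, median 0.51 in each), 9 with array weights (20.2%), 7 with the replicate block (12.3%), 7 with only the arrays compared (17.2%), 0 by title (0.00502%) and 0 by characteristic (0.241%, median 0.15), and 0 to 10 with 1 array left out (medians 0.32 to 0.46). The count of 10 came without floxed tumor array 2 (15.3%) or 3 (24.6%), so counts and all-gene shares went up together. For floxed tissue the median was −0.23 with quantile normalization, −0.025 with the other probe set, −0.21 by characteristic, and −0.16 to 0.010 with 1 array left out. Over all arrays, 2 passed with array weights (0.637%). The interaction's median was −0.31 by title, −0.16 by characteristic and −0.44 to −0.27 with 1 array left out. The causes of these moves were not tested. The replicate block, by title number, gave 0 calls in tumor epithelium, 8 for KO tissue with KO arrays alone, 0 for floxed tissue and 0 for the interaction. It was not run over all arrays, since the arrays of conflicting labels have no settled number.

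Limits are the 2 or 3 arrays in a group, 4 of the 5 floxed arrays with weak signal, 2 arrays of unsettled genotype, arrays not tied to animals, and probe sets of Fbl and Odc1 whose locus is in doubt. Where an arm was left with 1 array, it was assumed to vary like the others.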
